A study of Mus musculus with 8 samples.

Results

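The genes that encode the proteins of the cytosolic ribosome were followed through maps of promoter contacts in a mouse blood progenitor line. They were chosen by symbol from the GENCODE annotation of GRCm39, as protein-coding genes named Rpl or Rps with a number and at most a suffix of the a, l, x or p0 type, together with Rplp0, Rplp1, Rplp2 and Rpsa and without the Rps6k kinases. This gave 81 of 21751 protein-coding genes, 49 for the large and 32 for the small ribosomal subunit. Their canonical start sites lay in 81 different bins of 5 kb, so no bin was counted for more than 1 of them. Fau, whose product holds a ribosomal protein fused to a ubiquitin-type protein, does not carry such a symbol and was only read beside the set.

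The libraries were made from HPC-7, a mouse haematopoietic progenitor line grown with stem cell factor, that carried either the p30 or the p42 isoform of the transcription factor CEBPA. p42 is the full-length protein, and p30 is the shorter product that remains in leukaemia with mutations near the start of CEBPA. According to the study's methods the isoforms were introduced with retroviral vectors, both as constitutive forms and as fusions moved to the nucleus by tamoxifen, and the labels of these libraries do not tell which of these was used. Cells were untreated (UT, 0 h) or were exposed for 2 h to lipopolysaccharide (LPS), a bacterial ligand of the receptor TLR4, at 100 ng/mL. The 4 groups, written p30 UT, p30 LPS, p42 UT or p42 LPS, had 2 replicates each, which makes 8 libraries of H3K27ac HiChIP, a method that ligates neighbouring chromatin fragments and enriches those that carry the acetylated histone mark H3K27ac. The deposited data are 4 lists of significant contacts between bins of 5 kb (loops), 1 per group with both replicates pooled. No spread between replicates could therefore be measured, and every test and difference given here compares these libraries and not the conditions. A bin pair that is missing from a list has an unknown number of contacts. Where 4 values follow each other without a group, they are those of untreated p30, p30 after LPS, untreated p42 and p42 after LPS, in this order.

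Ribosomal protein genes are transcribed at high rates in nearly all growing cells, because each ribosome needs 1 copy of most of its proteins and a surplus of single proteins is degraded. Their promoters are short, lie close to short gene bodies and often work without a TATA box, and translation of their mRNAs is coordinated by the growth signalling kinase mTOR. In blood progenitors the dose of ribosomal proteins has a particular standing, since the loss of 1 allele of several of them causes Diamond-Blackfan anaemia, a failure of red cell production. H3K27ac marks active promoters and enhancers, so HiChIP with this mark favours contacts in which such elements take part.

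To see what the promoters share in sequence, a window from 250 bases before to 50 bases from the annotated start site was searched on both strands for CCGGAAG, the core recognised by ETS-family factors such as GABPA. This word was found in 25 of the 81 ribosomal protein promoters (30.9%), in 10.3% of all 21751 protein-coding promoters and in 15.98% of those with a loop in at least 1 list. Among the ribosomal protein genes, 22 of the 71 with a loop and 3 of the 10 without one had it. The SP1 word GGGCGGG was found in 37.0% of the set against 30.9% of all promoters and 41.6% of those with a loop, and the E-box CACGTG in 13.6%, 7.82% and 10.1%. AAGATGG, the core bound by YY1, was found in 7.41% of the set, in 5.74% of all promoters and in 6.69% of those with a loop. In the same order, the AP-1 word TGANTCA was present in 6.17%, 7.14% and 5.23%, the CEBP word TTGCNNAA in 8.64%, 10.7% and 8.83%, and TATAAA on the strand of the gene in 6.17%, 8.95% and 4.87%. For these last 3 words the set was below all promoters. The promoters with a loop are not a like group for the whole set, since 10 of its genes had no loop. Of the 71 genes of the set with a loop, 4 had the AP-1 word, 7 the CEBP word and 5 TATAAA. A run of at least 8 pyrimidines between 50 bases before and 30 bases after the annotated start, the kind of stretch that opens many mRNAs of this class, was present in 45.7% of the set, in 30.4% of all promoters and in 29.6% of those with a loop. A match describes the letters in the window and not a bound site, and the canonical annotated start is not always the used one.

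The following stretches come from GRCm39 and hold the ETS word, in capitals, with 20 bases on each side, read in the direction of the gene. They are shown for 10 genes that are named further on for their loops, or for having none, and that have the word upstream of the start site. The first 7 genes had loops, and Rpl39l, Rps6 and Rps7 had none in any list.
Rps10, chr17:27854520-27854566, minus strand: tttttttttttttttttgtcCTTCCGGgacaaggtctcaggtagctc
Rpl41, chr10:128385067-128385113, minus strand: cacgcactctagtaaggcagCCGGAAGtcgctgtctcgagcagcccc
Rpl27a, chr7:109118213-109118259, plus strand: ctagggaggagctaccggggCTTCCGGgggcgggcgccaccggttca
Rplp2, chr7:141027175-141027221, plus strand: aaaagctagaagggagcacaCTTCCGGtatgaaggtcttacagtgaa
Rpsa, chr9:119956624-119956670, plus strand: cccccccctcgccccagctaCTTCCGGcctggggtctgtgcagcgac
Rpl37, chr15:5146052-5146098, plus strand: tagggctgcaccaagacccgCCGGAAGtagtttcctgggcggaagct
Rps2, chr17:24938890-24938936, plus strand: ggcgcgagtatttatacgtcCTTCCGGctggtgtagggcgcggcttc
Rpl39l, first of 2 sites, chr16:9987926-9987972, plus strand: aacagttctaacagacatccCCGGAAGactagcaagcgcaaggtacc
Rpl39l, second site, chr16:9987980-9988026, plus strand: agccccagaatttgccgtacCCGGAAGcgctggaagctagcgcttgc
Rps6, chr4:86775669-86775715, minus strand: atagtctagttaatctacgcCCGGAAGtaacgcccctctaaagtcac
Rps7, chr12:28685940-28685986, minus strand: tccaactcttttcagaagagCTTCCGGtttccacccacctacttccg

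The lists held 80489 loops in p30 cells without and 94609 with LPS, and 158233 and 78591 in p42 cells, from 14503330 to 18999991 modelled contacts. Since the lists differ in length, comparisons of loop numbers used lists of equal size, each reduced to its 78591 strongest loops by q-value. The libraries also differed in contrast, here the mean coverage of peak bins divided by that of bins with no peak, which was 3.95, 5.70, 6.38 and 4.12. All 10 of 10 progenitor marker genes (Kit, Gata2, Tal1, Lmo2, Runx1, Lyl1, Fli1, Erg, Spi1 and Cd34) had a promoter loop in all 4 lists. Of 6 markers of other tissues, Alb, Neurod1, Sftpc and Krt5 had none, while Ins2 had 7, 8, 6 and 2 loops and Myod1 2, 2, 1 and 0.

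Ribosomal protein promoters were found in loops more often than the average promoter, as were those of other genes of the translation machinery. At least 1 loop was present at 71 of the 81 start-site bins (87.7%), against 48.3% of all protein-coding genes, and 54 of the 81 had a loop in every one of the 4 lists (66.7% against 29.1%). A loop in at least 1 list was found at 36 of 39 translation factor genes, 55 of 60 ribosome biogenesis genes, 18 of 19 RNA polymerase I genes and 66 of 77 mitochondrial ribosomal protein genes, so a high share with a loop was not particular to the cytosolic set. The share with a loop was 72.8% in untreated p30 cells against 37.1% of other genes, and 80.2% against 38.6% after LPS. In p42 cells it was 85.2% against 44.6% without and 71.6% against 34.9% with LPS. The set held 270, 396, 570 and 259 loops in the 4 lists in that order, between 1.01% and 1.22% of all promoter loops. Where a gene of the set had a loop, its median number was 4, 5, 8 and 4, against 3, 3, 5 and 3 for other genes. The 4 lists together held 748 different loops of the set among 214313.

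**Figure D1:**
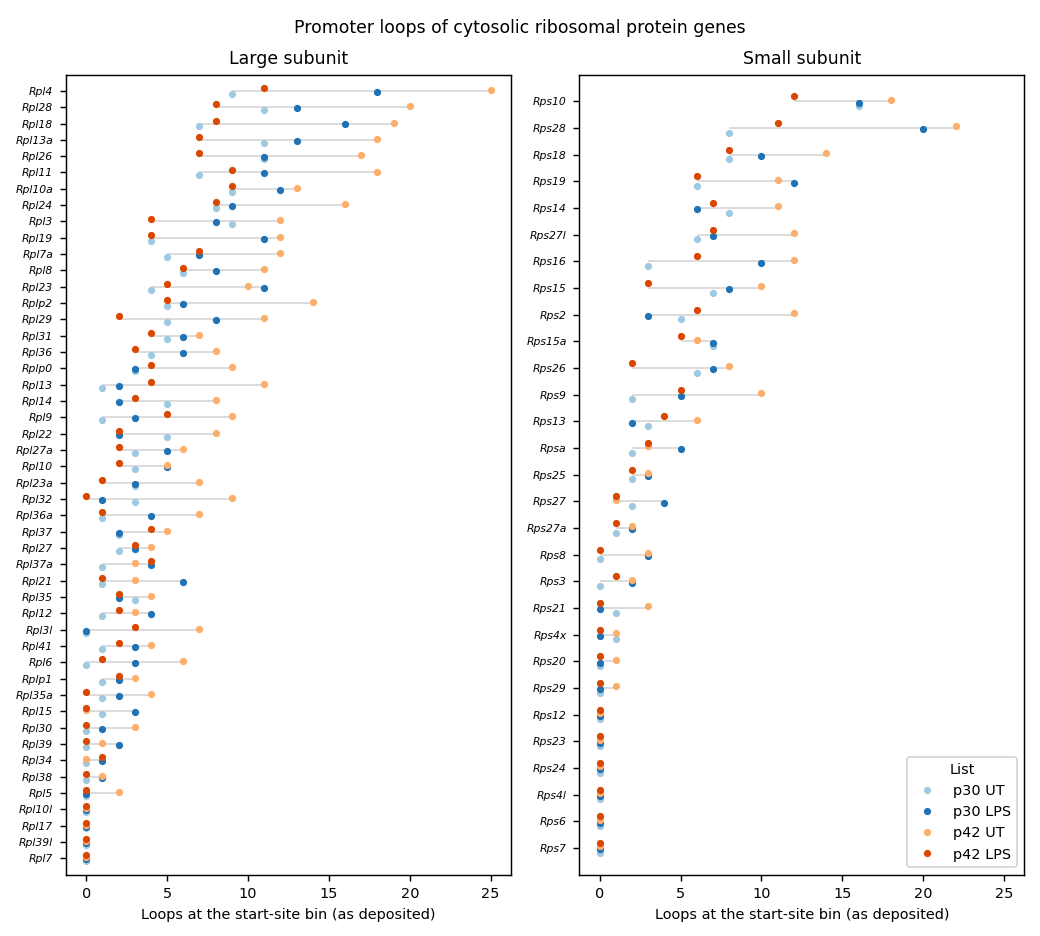
Number of loops at the start-site bin of 77 of the 81 ribosomal protein genes (horizontal axis, lists as deposited) in the 4 lists, with 1 point per list, a grey line over their range, and genes ordered by their mean within each subunit. The remaining genes are not drawn. Rpl4 reached 25 loops in p42 UT, and 10 genes had no point above 0.

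The genes with the most loops came from both subunits. Rpl4, whose protein lines the exit tunnel of the large subunit, had 9, 18, 25 and 11 loops, the highest mean of the set. Rps10, which lies near the mRNA entry of the small subunit and is a Diamond-Blackfan gene, had 16, 16, 18 and 12 and was the least variable of the leading genes. Rps28, a small protein near the mRNA exit, had 8, 20, 22 and 11 loops, with p30 LPS and p42 UT above the other lists. Rpl28 had 11, 13, 20 and 8, Rpl18 7, 16, 19 and 8, and Rpl13a, known also for silencing of mRNAs after interferon gamma, 11, 13, 18 and 7. All 6 had their largest number in p42 UT, the longest list. In lists of equal size the mean over the 4 lists was 14 for Rps10, 12.25 for Rpl4 and 11.5 for Rps28, so that their order changed with list length.

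Some of these counts belong to bins that hold more than the ribosomal gene. Another protein-coding start site shared the bin of 14 of the 71 genes with a loop (19.7%, against 20.5% of other genes with a loop), among them Zwilch with Rpl4, Ndufa7 with Rps28, Sphk2 with Rpl18, and B3galt4 and Vps52 with Rps18. Loops of such bins cannot be told apart by gene. Within the set, 29 genes held 57 annotated snoRNA genes, the guides of rRNA modification that are often hosted by ribosomal protein introns. For 9 genes the outermost annotated start lay in another bin than the canonical one. That other bin had 7, 4, 10 and 6 loops for Rps10 and 5, 11, 13 and 7 for Rpl36. GENCODE also lists 315 pseudogenes named for 62 of the 81 genes, and how reads that match several copies were handled is not given in the sources used here.

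No loop in any list was found for Rpl7, Rpl10l, Rpl17, Rpl39l, Rps4l, Rps6, Rps7, Rps12, Rps23 and Rps24. This group mixed genes of opposite use: Rpl10l and Rpl39l are paralogues known from the testis, whereas Rps6, the phosphorylated target of S6 kinases, and Rps24 and Rps7, both Diamond-Blackfan genes, belong to every ribosome. For Rpl17, Rpl7, Rps23 and Rps24 a bin directly next to the start-site bin had a loop in at least 1 list, with at most 2 loops per list. Rps24 has its outermost annotated start in the neighbouring bin, which had 1 loop in p30 UT, 1 in p30 LPS and none in the p42 lists. The genes without a loop lay in sparse neighbourhoods, with a median of 1 other protein-coding start site within 100 kb, against 5 for the ribosomal protein genes with a loop and 4 for other genes with a loop. Mappability of these bins was not examined.

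By subunit, 45 of 49 large and 26 of 32 small subunit genes had a loop, and 35 and 19 had one in all 4 lists. The acidic stalk proteins, which recruit elongation factors, all had loops: Rplp0 had 3, 3, 9 and 4, Rplp1 1, 2, 3 and 2, and Rplp2 5, 6, 14 and 5. Genes long known for Diamond-Blackfan anaemia, of which those read here are not a full list, differed widely. Rps19, the gene most often mutated in that anaemia, had 6, 12, 11 and 6 loops. Rpl11 had 7, 11, 18 and 9 and Rpl26 11, 11, 17 and 7. Rps26 had 6, 7, 8 and 2. Lower numbers were found with 1, 2, 4 and 0 for Rpl35a and 0, 0, 2 and 0 for Rpl5, which together with Rpl11 and 5S rRNA restrains MDM2. Genes of one disease thus ranged from the second rank of the whole set down to no loop.

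The paralogues split in the same way. Rps27l, a widely used relative of Rps27 that responds to p53, had 6, 7, 12 and 7 loops, more than Rps27 itself with 2, 4, 1 and 1. Rpl3l, a form of Rpl3 known from heart and skeletal muscle, had none in the p30 lists and 7 and 3 in p42 UT and p42 LPS. Its start site lies in the bin at chr17:24945001-24950000, with 1 bin between it and that of Rps2 at chr17:24935001-24940000, and its strongest loop led to the start site of Msrb1 over 10 kb with 143 contacts in p42 UT. Fau, outside the symbol rule, had 9, 12, 17 and 8.

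The genes are spread over 19 chromosomes, and the number of their loops differed between chromosomes. A loop found in several lists is counted once for each of them. All promoter loops were not counted by chromosome, so these numbers cannot be told apart from the general spread of promoter loops. Chromosome 7 holds 14 of them, all with loops, and 375 of the loops counted over the 4 lists. Chromosome 17 followed with 7 genes and 263 loops, chromosome 9 with 7 and 170, and chromosome 11 with 7 and 141. The 3 genes on chromosome 12 had 1 loop in all, and the 1 gene on chromosome 13, Rps23, had none.

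The start-site bins of the set had a higher median of H3K27ac HiChIP coverage, the deposited number of reads in a bin, than those of other genes with a loop. It was 4782, 4896, 5988 and 3682.5, against 3383.5, 3241, 4030 and 2731. Translation factor genes with a loop had higher medians still in every list, of 5557, 5980, 6463 and 3901. Relative to the mean of peak bins in the same list this was 1.99, 2.19, 2.06 and 1.90 for the set and 1.41, 1.45, 1.38 and 1.41 for other genes. All start-site bins of the set that had a loop were marked as peak bins by the caller, against 95.6% to 97.1% of the bins of other genes. Rps18 was the highest in p30 UT with 11636, in p42 UT with 13951 and in p42 LPS with 8418, and Rpl19 in p30 LPS with 11926. The lowest in the 4 lists were Rps4x with 1278, Rpl38 with 1505, Rps20 with 1636 and Rpl36a with 1878. Coverage and loop number went together across the genes of the set, with Spearman's rho of 0.45 (n = 59), 0.53 (n = 65), 0.54 (n = 69) and 0.46 (n = 58), against 0.52 to 0.63 across other genes. These points share a library and its depth, genes are not independent replicates, and coverage is known only for bins with a loop.

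**Figure D2:**
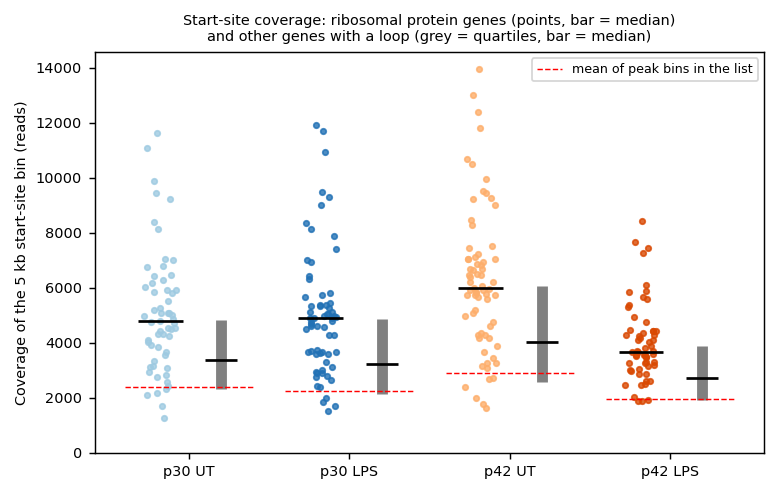
Coverage in reads of the 5 kb start-site bin (vertical axis) for each ribosomal protein gene with a loop (points, black bar for the median) in the 4 lists, beside the quartiles (grey) and median (bar) of other genes with a loop, with the mean of peak bins as a red dashed line. The medians of the set, from 3682.5 to 5988, lie above the medians of other genes in every list.

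Loops of the set were longer than those of other promoters. The median distance was 67.5 kb in untreated p30 cells and 65 kb in the other lists, against 50, 45, 50 and 45 kb. Beyond 100 kb lay 31.1%, 30.3%, 31.1% and 28.6% of the loops of the set and 21.4%, 19.6%, 21.7% and 19.0% of those of other genes. With the greater distance went fewer contacts, with a median of 16, 16, 18 and 17 against 19, 19, 20 and 19. The ratio of observed contacts to those the caller expected from distance and coverage was 5.16, 5.15, 5.00 and 5.28 for the set and 4.63, 4.66, 4.55 and 4.64 for other genes. The farthest partner of any gene of the set was 1115 kb from Rpl37a, with 7 contacts in p30 LPS alone.

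The other end of the loop held a protein-coding start site more often than in other promoter loops. In p30 cells this share was 37.8% without LPS (95% Wilson interval 32.2% to 43.7%) and 33.5% with it (29.0% to 38.3%). In p42 cells it was 32.4% (28.7% to 36.3%) and 35.9% (30.3% to 41.9%). For other genes it was 26.5%, 26.3%, 24.6% and 25.2%, below the lower bound in each list. The intervals cover counting error only, and loops of 1 start site share a bin and are not independent. Distal peak bins, with a peak and no start site, made up 44.4% to 51.1% of the partners of the set and 58.5% to 61.3% of those of other genes. Among genes with a like number of start sites within 100 kb, the share with a promoter partner was 33.3%, 31.2%, 27.6% and 31.9% for the set and 26.3%, 25.6%, 24.7% and 25.1% for others. At like density the interval of untreated p30 cells (26.4% to 41.1%) lay just above the value of the other genes. Those of p30 cells after LPS (25.4% to 37.6%) and of p42 cells (22.97% to 32.7% and 24.7% to 40.1%) included it. The median distance at like density stayed longer, at 75, 65, 65 and 65 kb against 45 kb in every list.

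**Figure D3:**
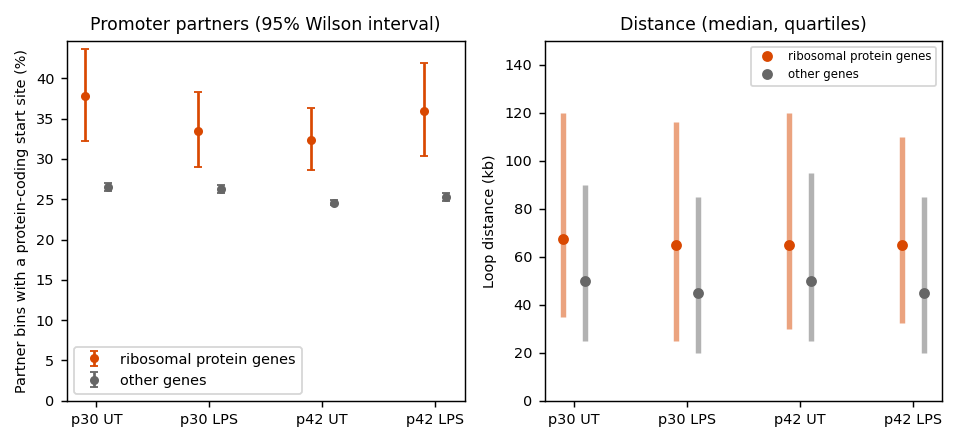
Left, percent of partner bins that hold a protein-coding start site, with 95% Wilson intervals, for ribosomal protein genes (orange) and other genes (grey) in the 4 lists. Right, loop distance in kb with the median (point) and quartiles (bar); the medians of the set are 65 to 67.5 kb and those of other genes 45 to 50 kb.

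The genes of the set were rarely joined to each other. A single pair within the set was found, Rpl41 and Rps26 on chromosome 10, whose start-site bins at chr10:128385001-128390000 and chr10:128460001-128465000 lie 75 kb apart. It was listed in p30 LPS with 12 contacts and in p42 UT with 16, and not in p30 UT or p42 LPS. This pair, counted from both ends, made up 0.504% of the partners of the set in p30 LPS and 0.3503% in p42 UT. These shares rest on a single loop. The loops of other promoters ended at a start site of the set in 0.354% and 0.314%. In p30 UT and p42 LPS the shares were 0% for the set and 0.333% and 0.323% for other promoters. Outside the symbol rule, the only loop of Rps29, over 25 kb with 20 contacts in p42 UT, ended at the bin of Mgat2 and Rpl36al.

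A stable core of 115 loops at 45 genes of the set was present in all 4 lists, with a median distance of 55 kb, and 47 of these, at 30 genes, ended at another protein-coding start site. The most contacts joined Rpl36 to Lonp1, the gene of the mitochondrial Lon protease, over 10 kb, with 186, 205, 247 and 149. Rps15a and Arl6ip1, which encodes a protein of the endoplasmic reticulum membrane, were joined over 10 kb by 127, 150, 184 and 125 contacts. Rpl18 and Spaca4 had 121, 106, 107 and 79 contacts. These are contacts as deposited, from libraries of unequal depth (17976716, 14503330, 18999991 and 15831583 modelled contacts), and their order over the lists was not read. Rps2 was joined to Tbl3, a component of the complex that processes pre-rRNA, by 96, 111, 123 and 77 contacts. Rpl13a was joined to Flt3l, the gene of the FLT3 ligand, by 98, 90, 88 and 75 contacts over 10 kb. That bin also holds the start site of Gm45713.

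Several of the core partners lay farther away. Rpl4 met the start site of Map2k1, the kinase MEK1, over 80 kb with 38, 34, 39 and 37 contacts. Rps10 met Nudt3 over 10 kb with 102, 80, 137 and 87, and the gene of the chromatin protein Hmga1 over 75 kb with 13, 24, 28 and 24. Rps18, on the edge of the major histocompatibility complex, had 4 such loops toward start sites, at 15 kb to Pfdn6 and Wdr46 with 98, 77, 133 and 75 contacts, at 25 kb to Rgl2 with 68, 53, 89 and 59, at 35 kb to Tapbp and Zbtb22 with 28, 24, 48 and 31, and at 45 kb to Daxx with 20, 19, 31 and 24. Over these partners the contacts of Rps18 were lower the greater the distance, in each list. Rps28 met Rab11b over 65 kb with 24, 31, 28 and 29 contacts, and Rpl28 met Kmt5c, a histone H4 methyltransferase, over 55 kb with 28, 22, 35 and 22.

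Loops in all 4 lists were 15.4% of the loops of the set and 17.8% of the promoter loops of other genes. Loops of exactly p30 LPS and p42 UT, the libraries with the highest contrast of peak over other bins, made up 11.2% of the set and 7.60% of others, and in lists of equal size 6.49% and 3.85%. Loops of p30 UT and p42 LPS alone made up 0.802% and 0.635% as deposited and 2.52% and 2.24% at equal size. The part of library contrast in this was not tested.

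To ask how the isoform bears on the promoters of the set in untreated cells, p42 UT was set against p30 UT. In lists of equal size the set had 307 loops in p42 and 262 in p30, a ratio of 1.17 with a 95% interval from 0.994 to 1.38 that includes 1. In the lists as deposited the ratio was 2.11, and it was 2.17 at a q-value under 0.001 and 2.42 under 1e-05. The intervals of these ratios come from the Wilson interval of the share of loops in one list and cover counting error only. All promoter loops at equal size numbered 27796 in p42 and 26252 in p30, a log2 ratio of 0.08 beside 0.23 in the set. In this and the next comparisons, whether the ratio of the set differed from that of all promoter loops was not tested. More loops in p42 were found at 33 of 65 genes of the set (50.8%, against 41.8% of all 8936 genes with a loop in either list), and more in p30 at 20 (30.8% against 37.7%). The mean difference was 0.71 loops per gene, against 0.24 over all genes. The largest differences were 7 loops in p42 against 1 in p30 at Rpl9 and 14 against 9 at Rpl4. Those the other way were 12 against 16 at Rps10 and 3 against 7 at Rps15a. Start-site coverage, scaled by the median ratio of peak bins, had a median log2 ratio of 0.16 (SD over genes 0.17, n = 58) in the set and 0.06 over all start-site bins, and was above 0 at 46 of 58 genes of the set (79.3% against 58.7%). Scaled by modelled contacts instead, both medians were higher, at 0.35 and 0.25. Only Rps27a, a ubiquitin fusion gene, was past 1.5-fold higher in p42 (1.72% of the set against 3.74% of all), with 6218 reads against 3139 before scaling, and no gene of the set was past 1.5-fold higher in p30 (against 1.40%).

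Contacts of single loops were compared between the same lists by the exact binomial test (two-sided), adjusted after Benjamini-Hochberg over all 31032 loops present in all 4 lists. Of the 115 loops of the set 6 were higher in p42 at an adjusted p under 0.05 (5.22%, against 10.7% of all loops), and none was higher in p30 (against 0.126%). The calls of the set were thus below the share among all loops. The median log2 ratio of contacts per modelled contact was 0.31 in the set and 0.31 over all loops. The loops were those of Rpl27a over 60 kb with 37 contacts in p42 and 13 in p30 (adjusted p = 0.0210, exact binomial test), Rpl28 over 90 kb with 35 and 13, Rplp2 to Cd151 over 20 kb with 69 and 37, Rpl41 over 10 kb with 97 and 53, Rps9 to Mboat7 and Tsen34 over 10 kb with 106 and 64, and Rps13 over 10 kb with 175 and 112. The adjusted p of the last 5 lay between 0.0167 and 0.0458 by the same exact test. None of the 6 passed when the null share came from the caller's expected counts or, as an alternative chosen after seeing the data, from the summed contacts of all loops tested.

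The same isoforms after LPS gave differences of the other sign. The set had 259 loops in p42 LPS and 326 in p30 LPS at equal size, a ratio of 0.794 (interval 0.675 to 0.935). All promoter loops went the same way, with 25370 in p42 LPS and 27560 in p30 LPS (log2 ratio -0.12, beside -0.33 in the set). More in p42 were found at 16 of 63 genes (25.4%, against 33.7% of all), and more in p30 at 36 (57.1% against 46.7%), with a mean difference of -1.08 loops against -0.39. Rps28 had 11 loops in p42 and 17 in p30, while Rps2 with 6 against 2 and Rpl37 with 4 against 0 went the other way. The median log2 coverage ratio was -0.14 (SD 0.17, n = 57) in the set and -0.10 over all start-site bins, with 10 of 57 genes above 0 (17.5% against 34.5%). Scaling by modelled contacts gave -0.48 and -0.44. No gene of the set was past 1.5-fold in either direction, against 1.96% of all bins higher in p42 and 3.44% higher in p30.

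Of the 115 core loops, 4 were higher in p30 LPS (3.48% against 2.35% of all) and none in p42 LPS (against 0.267%). They belonged to 3 genes. Rpl18 had 173 contacts in p30 and 110 in p42 over 10 kb (log2 ratio -0.78, adjusted p = 0.00138, exact binomial test) and 49 against 23 over 85 kb (adjusted p = 0.0295, same exact test). Rpsa, which encodes the ribosomal protein also described as a laminin receptor precursor, had 121 against 73 over 10 kb (adjusted p = 0.00573, exact test), and the loop of Rpl36 to Lonp1 205 against 149 (adjusted p = 0.0124, exact test). Again none was called with the other null shares.

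In p30 cells LPS went with more loops at the set. At equal size there were 326 loops after LPS and 262 without, a ratio of 1.24 (interval 1.06 to 1.46), with more after LPS at 40 of 65 genes (61.5%, against 42.3% of all) and more in UT at 15 (23.1% against 36.8%). All promoter loops numbered 27560 after LPS and 26252 without, a log2 ratio of 0.07 beside 0.32 in the set. The mean difference was 1 loop per gene in the set and 0.22 over all genes. Rps28 had 17 loops after LPS and 7 without, the largest difference of the set in any of the 4 comparisons, and Rpl4 15 and 9. Rpl3, part of the peptidyl transferase region, had 6 and 9, and Rps14, the gene lost in the 5q- syndrome, 5 and 8. Scaled coverage had a median log2 ratio of 0.12 (SD 0.14, n = 57) against 0.05 over all bins and was above 0 at 48 of 57 genes (84.2% against 58.8%), and with modelled contacts as the scale the medians were 0.32 and 0.25. None was past 1.5-fold, against 2.06% of all bins higher after LPS and 0.344% higher in UT.

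Among core loops of p30 cells 4 were higher after LPS (3.48% against 3.89% of all) and none in UT (against 0.0387%). Rpl18 had 49 against 25 contacts over 85 kb and 173 against 149 over 10 kb, Rpsa 121 against 85 (adjusted p = 0.00444, exact binomial test), and Rps15a to Arl6ip1 150 against 127 with a smaller number of modelled contacts after LPS. The loops of Rpl18 had adjusted p of 0.0126 and 0.0351 and that of Rps15a 0.0451 in the exact test. None of the 4 was called with the other null shares, and 2 were called when all loops present in both lists of the comparison were tested. The calls at Rpl18 and Rpsa in this comparison and in that of both isoforms after LPS rest on the same p30 LPS library.

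In p42 cells LPS went with fewer loops. The set had 259 after LPS and 307 without at equal size, a ratio of 0.844 (interval 0.715 to 0.995) that was 0.454 in the lists as deposited, 0.403 at a q-value under 0.001 and 0.368 under 1e-05. At equal size there were more after LPS at 17 of 62 genes (27.4%, against 31.8% of all) and more in UT at 36 (58.1% against 46.4%), and a mean difference of -0.79 against -0.41. For all promoter loops the numbers at equal size were 25370 after LPS and 27796 without, a log2 ratio of -0.13 beside -0.25 in the set. Rpl23a had 1 loop after LPS and 6 without, whereas Rpl37a had 4 and 1. The median log2 coverage ratio was -0.14 (SD 0.09, n = 57), close to the -0.12 of all start-site bins, with 4 of 57 genes above 0 (7.02% against 27.6%). These medians were -0.48 and -0.46 when scaled by modelled contacts. None of the set was past 1.5-fold, against 0.819% of bins higher after LPS and 0.956% higher in UT. Of the core loops 3 were higher in UT (2.61% against 3.58%) and none after LPS (against 0.087%). Among these were Rpl11 over 25 kb with 29 contacts after LPS and 69 without, and Rpl36 to Lonp1 with 149 and 247. The adjusted p of Rpl11 was 0.0450 and that of Rpl36 0.0484 in the exact binomial test. None of the 3 was called with the other null shares, and 1 was called among loops present in both lists.

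**Figure D4:**
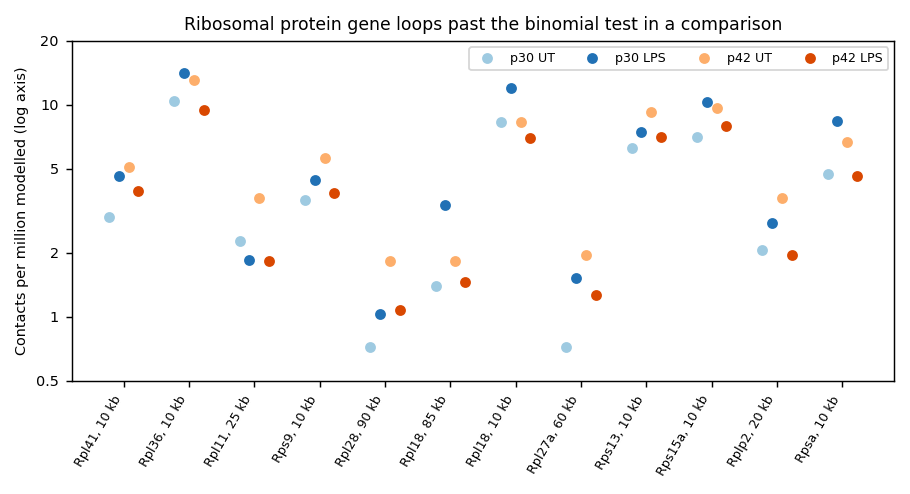
Contacts per 1000000 modelled contacts (log axis) of 12 ribosomal protein loops past the exact binomial test in at least 1 comparison, in the 4 lists; the horizontal axis names gene and loop distance. Both loops of Rpl18 are highest in p30 LPS, and those of Rpl28 and Rpl27a are highest in p42 UT.

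All 4 comparisons share libraries pairwise, so their values are not independent of each other. p30 LPS and p42 UT were the higher side wherever they were compared with p30 UT or p42 LPS, in loops, in scaled coverage and in the calls of single loops, and they were also the libraries in which peak bins stood out most from other bins (5.70 and 6.38 against 3.95 and 4.12). Whether this contrast has a part in the differences was not tested.

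**Figure D5:**
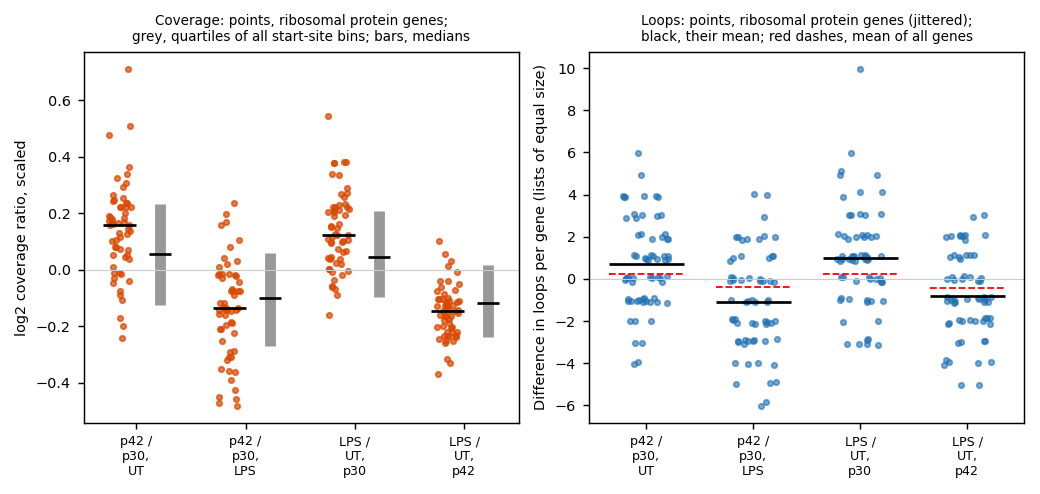
Left, log2 ratio of start-site coverage, scaled by the median ratio of peak bins, for each ribosomal protein gene (points, bar for the median) in the 4 comparisons, beside the quartiles and median of all start-site bins (grey, bar). Right, difference in loops per gene in lists of equal size for genes of the set with a loop in either list (points, jittered), with their mean (black) and the mean of all genes (red dashes); the means of the set are 0.71, -1.08, 1 and -0.79.

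In each comparison the mean difference in loops had the same sign in both subunits. The mean difference in loops of large subunit genes was 0.98 for p42 against p30 in UT, -1.02 for the same isoforms in LPS, 1 for LPS against UT in p30 and -1.02 in p42. For small subunit genes it was 0.22, -1.18, 1 and -0.33, and over all genes 0.24, -0.39, 0.22 and -0.41. The small subunit was thus not above all genes for p42 against p30 in UT, where 9 of its 23 genes had more and 9 had fewer loops in p42, and in the p42 comparison with LPS its mean was nearer 0 than that of all genes.

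Other genes of the translation machinery were read by the same steps. A loop in all 4 lists was present at 45 of 77 mitochondrial ribosomal protein genes, 28 of 39 translation factor genes, 32 of 60 ribosome biogenesis genes and 7 of 19 RNA polymerase I genes, beside 54 of 81 in the cytosolic set. In lists of equal size, p42 against p30 in UT, more loops in p42 were found at 24 and fewer at 24 of 56 mitochondrial ribosomal protein genes, at 12 and 12 of 33 translation factor genes, at 23 and 14 of 47 biogenesis genes and at 4 and 7 of 15 polymerase I genes. After LPS the same numbers were 14 and 26 of 60, 15 and 12 of 34, 15 and 13 of 41, and 2 and 10 of 14. For LPS against UT in p30 they were 21 and 25 of 58, 15 and 13 of 34, 12 and 13 of 44, and 6 and 6 of 15. In p42 they were 14 and 26 of 57, 11 and 17 of 34, 12 and 17 of 45, and 3 and 8 of 13. In that last comparison more genes had fewer loops after LPS than had more, in each of the 4 groups of genes, in the cytosolic set and over all genes (46.4% with fewer and 31.8% with more). For LPS against UT in p30 the median log2 coverage ratio was 0.24 for translation factor genes and 0.11 for biogenesis genes, beside 0.12 in the cytosolic set, with 0.01 for mitochondrial ribosomal protein genes and 0.04 for polymerase I genes. For p42 against p30 it was 0.13, 0.17, 0.08 and -0.05 in UT in that order, beside 0.16, and -0.19, -0.09, -0.08 and -0.23 after LPS, beside -0.14. For LPS against UT in p42 it was -0.21, -0.15, -0.14 and -0.16, beside -0.14. The differences between these gene groups and the cytosolic set were not tested. Eef2, the elongation factor that moves the ribosome along the mRNA, had 12, 11, 19 and 7 loops, and Ncl, which encodes nucleolin, 12, 14, 20 and 5.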

How the data were processed

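H3K27ac HiChIP of 8 HPC-7 libraries was used as 4 deposited loop lists, 1 per group. According to the methods, the authors mapped reads to mm39 with BWA-MEM (BWA 0.7.17 in the submitters' processing notes), recorded pairs and removed duplicates with pairtools and called loops with FitHiChIP. How replicates were pooled is not given in the sources used here. The lists have no header, and columns were read in FitHiChIP order and checked on their values. Contacts were deposited by the authors as a raw count of ligation products per bin pair. The deposited expected count is a score of the caller's model of distance and coverage, the deposited probability is a fraction, and the deposited q-value, an adjusted p-value, is under 0.01. Its correction for coverage may take away differences that come with H3K27ac itself, and it lists significant pairs alone. No column belonged to a sample outside the series (0 columns).

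Start sites were the canonical ones of GENCODE for 21751 protein-coding genes. The number of modelled contacts is the expected count divided by the probability. Loop numbers were compared in lists of equal size, coverage after scaling by the median ratio of peak bins in all 4 lists, and contacts by an exact binomial test, two-sided, over 31032 loops with Benjamini-Hochberg adjustment. On simulated data for p42 against p30 in UT, the test recovered 62% of 200 loops changed 3-fold among 30000, and 3.12% of its calls were false. The simulated contacts were random (Poisson) draws around the null share that the test used, with no shift common to all loops. In the lists the calls were one-sided, with 3308 higher in p42 UT and 39 in p30 UT. The simulated false share therefore does not describe the calls reported here. Genes named were those with the 6 largest mean loop numbers, those without loops, the 2 per direction with the largest differences in each comparison, those with a loop past the test or joined to each other, paralogues, a list of Diamond-Blackfan genes that is not complete, and Fau. A few genes that this rule would name are not reported here. Rps27a, Rps18, Rps29, the stalk genes and core partners, and Eef2 and Ncl, were chosen after their values were seen. The genes and lists were chosen with earlier results of these data known. Alternatives were other list lengths, q-values under 0.001 and 1e-05, loops of at least 20 kb, a promoter window with the bin on each side, other scalings, other null shares, loops in both lists and a minimum of 20 contacts. Python 3.11.15, numpy 2.4.6, pandas 2.3.3 and scipy 1.17.1 were used.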

Additional observations from a re-analysis of the deposited data

Results flagged for a closer look

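The change of the ribosomal protein promoters with LPS had opposite signs with both isoforms, and replicates were not available to test it. In lists of equal size the log2 ratio of their loops, LPS against UT, was 0.32 with p30 and -0.25 with p42, and over all promoter loops it had the same signs, at 0.07 and -0.13. The values of the set differ by 0.56, which was not tested. The same libraries read by isoform gave a log2 ratio, p42 against p30, of 0.23 in UT and -0.33 in LPS, beside 0.08 and -0.12 over all promoter loops, with the same difference of 0.56 in the set, also not tested. The median log2 ratio of start-site coverage, LPS against UT, was 0.12 with p30 and -0.14 with p42, differing by 0.27, which was not tested. For p42 against p30 it was 0.16 in UT and -0.14 in LPS, a difference of 0.30 that was not tested. Over all start-site bins the same medians were 0.05 and -0.12, and 0.06 and -0.10.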

How the results depend on the processing

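No paired analysis was possible because each list pools both replicates of its group. For the same reason no replicate could be left out. The counts of called ribosomal protein loops (6, 4, 4 and 3) became 0 in every comparison with the null share from expected counts and with the null share from the summed contacts of the tested loops, the latter chosen after seeing the data. Of all loops, 3308 were called higher in p42 UT and 39 in p30 UT, against 435 and 1 with the expected counts and 480 and 253 with the summed contacts. With loops in both lists of a comparison, 2 loops were higher after LPS in p30 and 1 was higher in UT in p42. The ratio of loop numbers, p42 against p30 in UT, was 2.11 in the lists as deposited, 2.17 at a q-value under 0.001 and 2.42 under 1e-05, against 1.17 at equal size. After LPS it was 0.654 as deposited and 0.627 under 1e-05, and for LPS against UT it was 1.47 in p30 as deposited and 0.454, 0.403 and 0.368 in p42 as deposited, under 0.001 and under 1e-05. Directions held in all of these. Scaling coverage by modelled contacts gave median log2 ratios of 0.35, -0.48, 0.32 and -0.48 in place of 0.16, -0.14, 0.12 and -0.14. Under 1e-05 the share of promoter partners was 39%, 38.7%, 37.4% and 33.7% in the set and 29.2%, 29.5%, 26.4% and 27.1% for other genes. The interval of p42 LPS at this setting (24.7% to 44.0%) included the value of other genes, unlike in the lists as deposited. The cause of these changes was not tested. List length is taken out by construction in the lists of equal size, which have unlike q-value cutoffs instead.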
